A study of Mus musculus with 13 samples.

Results

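Pecam1, Cdh5, Kdr, Flt1, Tek, Tie1, Emcn and Eng mark the endothelial cells that line blood and lymph vessels, and Cav1 and Cav2 encode the caveolins that coat the caveolae of those and other cells. The 10 genes, each read by 1 probe set, were chosen by name from the 19937 genes measured, with earlier results of these data known. The other gene lists were chosen likewise, so shares over all genes set beside their counts are a description and no test. The 10 genes were followed across mouse melanocytes and melanocytic lesions on 13 Affymetrix arrays in 6 groups. Of 3 groups of sorted cells, the labels describe FACS-purified Cdkn2a/Braf melanocytes at day 19, before growth arrest (2 arrays), the same genotype at day 50, after it (2 arrays), and day 19 melanocytes with the Cdkn2a genotype only (2 arrays). Of 3 groups of uncultured tissue, 2 are melanoma, with the genotypes Cdkn2a/Braf and Cdkn2a/Braf/Lkb1 (2 arrays each), and the third is pooled Lkb1/Braf melanocytic proliferations (3 arrays). The Braf allele named in the title is BrafV600E, an oncogenic form of the kinase. Every group but the proliferations carries the Cdkn2a genotype, and every group but the Cdkn2a-only cells carries Braf. Cdkn2a encodes inhibitors of the cell cycle, and Lkb1 is the kinase gene listed on the array as Stk11. The labels name no Cre driver, sort marker, strain or sex, and no age for the tissue. Samples within a group are labelled as biological replicates, and no more is said of the animals behind them.

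Endothelial cells hold to one another through adherens junctions, of which VE-cadherin, the product of Cdh5, is the defining adhesion molecule. They respond to VEGF through the receptors encoded by Kdr and Flt1, and to angiopoietins through the receptor encoded by Tek, with Tie1 as its partner. Endoglin, encoded by Eng, is a co-receptor for BMP and TGF-beta ligands on proliferating endothelium. Caveolae are small pits of the plasma membrane built from caveolins and cavins, and they are abundant in endothelial cells, adipocytes, fibroblasts and muscle. Melanocytes are pigment cells of neural crest origin and are not an endothelial cell type.

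Promoter sequence was available for 8 of the 10 genes in RefSeq (build GRCm38.p6), in 9 windows of 250 bases that end at an annotated start. ETS factors, a family with many members in endothelial cells, bind around a GGAA core, and the windows were searched on both strands for GGAA and for a longer form that contains it, AGGAAG, which reads as CTTCCT when the match lies on the other strand. AGGAAG lay in the windows of 4 of the 8 genes, with 2 matches each in Flt1, Emcn and Eng and 1 in Tie1. It was absent from the windows of Kdr, Tek and Cav2 and from both windows of Cav1. AGGAAG was found in 29.5% of all 32851 promoter windows. The GGAA core was in the windows of all 8 genes and in 93.4% of all windows. The windows below show the 3 genes with 2 matches beside the caveolins, with matches to the longer form on either strand in capitals, each written 5′ to 3′ on its gene's strand. Flt1 lies at chr5:147726012-147726261 on the minus strand. Emcn lies at chr3:137340828-137341077, Eng at chr2:32646345-32646594, Cav1 at chr6:17306085-17306334 and Cav2 at chr6:17280935-17281184, all on the plus strand. Cav2 and Cav1 are neighbours on chromosome 6, with 17204 bases between the end of Cav2 and the start of Cav1.
Flt1: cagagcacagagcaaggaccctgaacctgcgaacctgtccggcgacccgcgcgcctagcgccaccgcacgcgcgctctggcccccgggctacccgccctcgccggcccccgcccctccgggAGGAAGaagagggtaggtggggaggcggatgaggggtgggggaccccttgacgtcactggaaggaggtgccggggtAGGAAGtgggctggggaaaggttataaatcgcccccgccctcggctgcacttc
Emcn: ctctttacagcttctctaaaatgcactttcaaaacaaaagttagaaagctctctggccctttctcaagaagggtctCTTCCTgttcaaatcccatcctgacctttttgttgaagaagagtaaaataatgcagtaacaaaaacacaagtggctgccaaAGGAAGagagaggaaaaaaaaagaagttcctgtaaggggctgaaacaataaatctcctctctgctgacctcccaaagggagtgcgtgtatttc
Eng: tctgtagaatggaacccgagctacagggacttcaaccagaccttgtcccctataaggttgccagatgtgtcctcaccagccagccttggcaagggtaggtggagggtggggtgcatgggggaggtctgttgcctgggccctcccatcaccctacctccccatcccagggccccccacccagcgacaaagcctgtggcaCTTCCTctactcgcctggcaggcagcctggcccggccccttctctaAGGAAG
Cav1: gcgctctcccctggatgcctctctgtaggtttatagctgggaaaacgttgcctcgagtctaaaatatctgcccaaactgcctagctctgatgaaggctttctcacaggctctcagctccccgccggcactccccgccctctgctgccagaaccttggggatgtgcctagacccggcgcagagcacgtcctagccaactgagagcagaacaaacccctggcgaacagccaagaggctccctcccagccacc
Cav2: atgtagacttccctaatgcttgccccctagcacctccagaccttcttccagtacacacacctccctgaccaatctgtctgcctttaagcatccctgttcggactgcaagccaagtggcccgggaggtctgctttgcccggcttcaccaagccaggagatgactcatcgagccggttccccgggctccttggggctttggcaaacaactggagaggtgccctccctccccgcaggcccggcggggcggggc
A match is a run of letters and no evidence that a factor binds there.

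Levels are given as log2(intensity + 1), so that 1 unit is about a doubling of the intensity. Differences come from a limma fit of the 6 group means with its standard error (SE), and a gene counts as changed at a limma adjusted p under 0.05 over all 19937 genes. Precision is limited by group sizes of 2 and 3 arrays. A level is compared between groups for the same gene and never between genes. Stk11 read 7.86 to 8.36 in Cdkn2a/Braf/Lkb1 melanoma and 8.09 to 8.36 in the proliferations, against 8.63 to 8.90 in Cdkn2a/Braf melanoma, a difference between the melanomas that did not pass (-0.65, SE 0.39, limma adjusted p = 0.396). In the sorted cells, none labelled Lkb1, Stk11 read 7.66 on day 50 replicate 2 and 8.86 to 9.27 on the others. Where its probes lie relative to the altered part of the gene was not tested. Tyr, the pigment-making enzyme of melanocytes, was high at day 19 (11.66 to 11.96 over both genotypes). It read 7.40 and 9.90 at day 50, 6.18 to 6.67 in the proliferations and 3.99 to 4.45 in the melanomas. The defining pigment markers were therefore at a very low level in the samples labelled melanoma. A pair of features touch the results. The 2 day 50 replicates differed from each other more than replicates 1 and 2 of any other group. The SD over genes of replicate 1 minus replicate 2 was 0.703 at day 50 and 0.273 to 0.404 in the other groups. The spread of levels over genes also varied, with an interquartile range of 1.93 and 1.94 at day 50, 2.00 to 2.11 in the proliferations and 2.45 to 2.89 in the melanomas. All arrays hold bulk RNA, in which fewer cells of a type and less RNA per cell cannot be told apart.

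Taken by group, the summed intensity of the 8 endothelial genes was lowest in the day 19 cells, at 560 to 574 with Cdkn2a/Braf and 547 to 583 with Cdkn2a only. The proliferations reached 889 to 948, Cdkn2a/Braf melanoma 1992 to 2049 and Cdkn2a/Braf/Lkb1 melanoma 2723 to 3004. Cdh5 alone made up 1735 of the 3004 on Cdkn2a/Braf/Lkb1 replicate 2. As a mean log2 level of the 8 genes the melanoma groups overlapped, at 7.80 to 7.84 with Cdkn2a/Braf and 7.78 to 8.15 with Cdkn2a/Braf/Lkb1. The day 50 arrays lay far apart, at 2616 for replicate 1 and 1066 for replicate 2. The sum of Cav1 and Cav2 followed another order, from 212 to 356 in Cdkn2a-only cells and 391 to 506 in Cdkn2a/Braf cells at day 19 to 1834 to 2310 at day 50. It was 1038 to 1233 in the proliferations, 1239 to 1636 in Cdkn2a/Braf/Lkb1 melanoma and 2341 to 2726 in Cdkn2a/Braf melanoma.

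**Figure D1:**
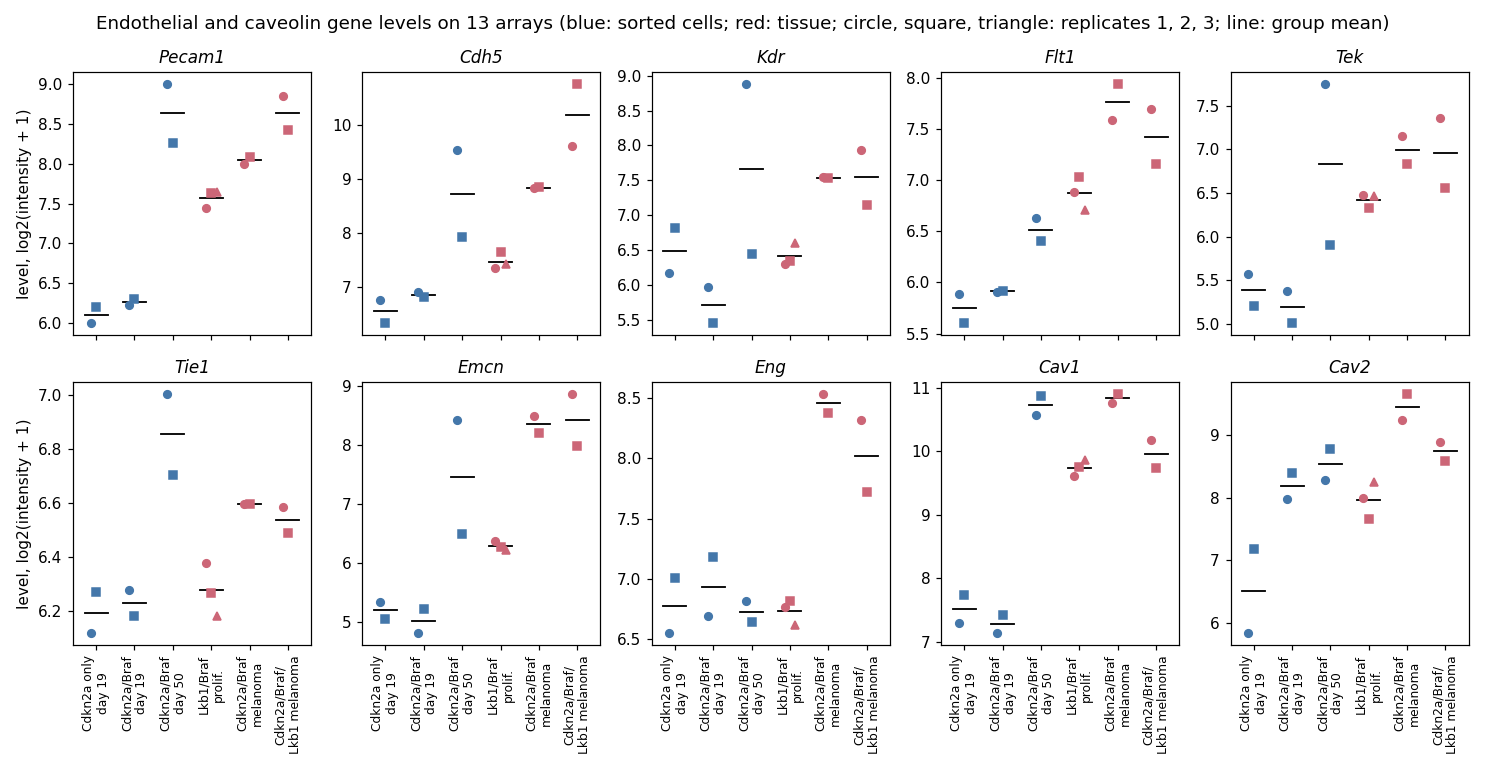
Level of each of the 10 genes on the 13 arrays, as log2(intensity + 1), with 1 panel and 1 vertical axis per gene, points for arrays and a line for each group's mean. For Pecam1, Cdh5, Flt1, Tek, Emcn and Cav1 all 4 day 19 arrays of both genotypes lie below every other array, while Eng separates the 4 melanoma arrays from the other 9. The share of all genes with these patterns was not counted.

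Pecam1, the adhesion molecule CD31, was lowest in the sorted day 19 cells. Its levels were 6.23 and 6.30 in Cdkn2a/Braf cells and 6.01 and 6.21 in Cdkn2a-only cells at day 19, and 9.00 and 8.26 at day 50. In tissue they were 7.44, 7.63 and 7.64 in the proliferations, 7.99 and 8.09 in Cdkn2a/Braf melanoma and 8.84 and 8.43 in Cdkn2a/Braf/Lkb1 melanoma. All 4 day 19 arrays lay below every day 50 and tissue array. With the 6 groups in order of mean level, 1 of the 5 steps passed, from the proliferations down to day 19 Cdkn2a/Braf cells (1.31, SE 0.21, limma adjusted p = 0.00109). A step joins neighbours in a gene's own order, so groups further apart can differ where no step passes.

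Cdh5, which encodes VE-cadherin, was highest in Cdkn2a/Braf/Lkb1 melanoma. The 2 arrays there read 9.60 and 10.76, against 8.82 and 8.84 in Cdkn2a/Braf melanoma and 7.34, 7.63 and 7.42 in the proliferations. Sorted cells read 6.90 and 6.80 (Cdkn2a/Braf) and 6.75 and 6.33 (Cdkn2a only) at day 19, and 9.54 and 7.92 at day 50. The 3 tissue groups did not overlap, but the 2 Cdkn2a/Braf/Lkb1 arrays were uneven (SD 0.82, n = 2), and none of the 5 steps between neighbouring groups passed. Day 50 replicate 1 lay above both Cdkn2a/Braf melanoma arrays and replicate 2 below both.

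Emcn encodes endomucin, a surface sialomucin of capillary and venous endothelium. It read 4.82 and 5.23 in Cdkn2a/Braf cells and 5.34 and 5.06 in Cdkn2a-only cells at day 19, the dimmest levels among the groups. The day 50 arrays lay far apart, at 8.41 and 6.50 (SD 1.36, n = 2). In tissue the levels were 6.38, 6.27 and 6.22 in the proliferations, 8.49 and 8.19 in Cdkn2a/Braf melanoma and 8.86 and 7.98 in Cdkn2a/Braf/Lkb1 melanoma. The melanoma groups overlapped each other and lay above all 3 proliferation arrays. None of the 5 steps between neighbours passed.

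Kdr encodes VEGFR2, the main signalling receptor for VEGF-A, and had the widest gap of the 10 genes between the day 50 replicates. It read 8.88 in day 50 replicate 1 and 6.44 in replicate 2, and 5.98 and 5.45 in Cdkn2a/Braf cells at day 19. Cdkn2a-only cells read 6.17 and 6.81 at day 19. The proliferations, at 6.30, 6.34 and 6.59, lay within the range of the Cdkn2a-only cells, and the melanomas read 7.54 and 7.54 (Cdkn2a/Braf) and 7.94 and 7.15 (Cdkn2a/Braf/Lkb1). The group means therefore have an order, but none of its 5 steps passed.

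Flt1 encodes VEGFR1, which binds VEGF-A, VEGF-B and PlGF and limits VEGF-A reaching VEGFR2. Its levels were 5.91 and 5.92 in Cdkn2a/Braf and 5.89 and 5.60 in Cdkn2a-only cells at day 19, and 6.63 and 6.40 at day 50. The proliferations read 6.89, 7.03 and 6.70, Cdkn2a/Braf melanoma 7.59 and 7.94, and Cdkn2a/Braf/Lkb1 melanoma 7.69 and 7.16. Unlike Kdr, the 2 day 50 arrays agreed closely and both lay below every tissue array. The step from Cdkn2a/Braf/Lkb1 melanoma to the proliferations passed (0.55, SE 0.19, limma adjusted p = 0.0396), and the other 4 did not.

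Tek encodes the angiopoietin receptor TIE2. It read 5.38 and 5.01 in Cdkn2a/Braf and 5.56 and 5.20 in Cdkn2a-only cells at day 19, and 7.75 and 5.91 at day 50. The tissue groups were close together, with 6.48, 6.33 and 6.47 in the proliferations, 7.16 and 6.83 in Cdkn2a/Braf melanoma and 7.36 and 6.55 in Cdkn2a/Braf/Lkb1 melanoma. Every tissue array lay above every day 19 array. No step between neighbours passed.

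Tie1, the partner receptor of TIE2, had the narrowest range of the 10 genes. The levels were 6.28 and 6.18 in Cdkn2a/Braf and 6.12 and 6.27 in Cdkn2a-only cells at day 19, 7.00 and 6.71 at day 50, and 6.38, 6.27 and 6.18 in the proliferations. The melanomas read 6.60 and 6.60 (Cdkn2a/Braf) and 6.59 and 6.49 (Cdkn2a/Braf/Lkb1). Both day 50 arrays were above all other arrays, and the proliferations overlapped the day 19 cells. None of the 5 steps passed.

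Eng was the endothelial gene with a different pattern. It read 6.69 and 7.18 in Cdkn2a/Braf and 6.55 and 7.01 in Cdkn2a-only cells at day 19, 6.81 and 6.64 at day 50, and 6.77, 6.82 and 6.61 in the proliferations. These 9 arrays overlapped. Only the melanomas were higher, at 8.54 and 8.38 with Cdkn2a/Braf and 8.31 and 7.72 with Cdkn2a/Braf/Lkb1. The step from Cdkn2a/Braf/Lkb1 melanoma down to day 19 Cdkn2a/Braf cells passed (1.08, SE 0.23, limma adjusted p = 0.00997), and the other 4 steps did not.

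Cav1 encodes the main structural protein of caveolae outside muscle. It read 7.14 and 7.42 in Cdkn2a/Braf and 7.29 and 7.74 in Cdkn2a-only cells at day 19, and 10.57 and 10.87 at day 50. The proliferations read 9.62, 9.75 and 9.86, Cdkn2a/Braf melanoma 10.76 and 10.91, and Cdkn2a/Braf/Lkb1 melanoma 10.18 and 9.74. Day 50 cells and Cdkn2a/Braf melanoma shared the top of the range, and day 19 cells lay far below everything else. Of the 5 steps, day 50 over Cdkn2a/Braf/Lkb1 melanoma passed (0.76, SE 0.20, limma adjusted p = 0.0118), as did the proliferations over Cdkn2a-only cells (2.23, SE 0.19, limma adjusted p = 2.52e-05).

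Cav2 encodes caveolin-2, which forms hetero-oligomers with caveolin-1. It read 7.98 and 8.40 in Cdkn2a/Braf cells at day 19 and 8.29 and 8.78 at day 50, which overlapped, and 5.84 and 7.18 in Cdkn2a-only cells. In tissue it read 8.0, 7.66 and 8.24 in the proliferations, 9.25 and 9.66 in Cdkn2a/Braf melanoma and 8.89 and 8.59 in Cdkn2a/Braf/Lkb1 melanoma. The step from the proliferations to Cdkn2a-only cells passed (1.46, SE 0.35, limma adjusted p = 0.0109). Over all 10 genes, 6 of the 50 steps between neighbouring groups passed, and the share over all genes was not counted. Groups further apart in the order could pass where no step did. Emcn differed by 2.05 between Cdkn2a/Braf melanoma and the proliferations (SE 0.45, limma adjusted p = 0.0108).

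The day 50 comparison asks how Cdkn2a/Braf melanocytes after growth arrest differ from those before it. No Cdkn2a-only cells were read at day 50, so arrest cannot be told apart from time. Day 50 cells had higher Cav1 by 3.44 (SE 0.20, limma adjusted p = 1.14e-05), Emcn by 2.43 (SE 0.50, limma adjusted p = 0.00762) and Pecam1 by 2.36 (SE 0.23, limma adjusted p = 0.000141). Kdr rose by 1.95 (SE 0.61), Cdh5 by 1.87 (SE 0.47), Tek by 1.64 (SE 0.48) and Tie1 by 0.63 (SE 0.14), with limma adjusted p of 0.0423, 0.019, 0.0338 and 0.0101. In all, 7 of the 10 genes were higher and 0 lower, where 11.1% of all genes tested were higher and 14.5% lower, and the median of the 10 differences was 1.76 against 0.17 over all genes. Flt1, with a difference of 0.60 (SE 0.21, limma adjusted p = 0.055), Cav2, with 0.34 (SE 0.39, limma adjusted p = 0.494), and Eng, with -0.21 (SE 0.23, limma adjusted p = 0.491), did not pass. The caveolins thus parted, with both day 50 arrays of Cav1 above both day 19 arrays and those of Cav2 overlapping them.

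The endothelial genes did not move alike on the 2 day 50 arrays. Replicate 1 exceeded the day 19 mean by 3.39 for Emcn, 3.17 for Kdr, 2.73 for Pecam1, 2.68 for Cdh5 and 2.56 for Tek. Replicate 2 exceeded it by 1.47, 0.73, 1.99, 1.06 and 0.72 for the same genes. Over the 8 endothelial genes the median was 2.62 on replicate 1 and 0.72 on replicate 2, while over all genes it was 0.18 and 0.13. For Cav1 replicate 2 was the higher, at 3.59 against 3.30. Without day 50 replicate 1 the median of the 10 differences was 0.72, and without day 50 replicate 2 it was 2.62. Without day 19 replicate 1 it was 1.87, and without day 19 replicate 2 it was 1.57. Kdr passed in 4, Tek in 7 and Cdh5 in 9 of 13 alternatives. In a fit of the 4 arrays alone 1 gene, Cav1, passed. In that fit 1.45% of all genes passed, where 25.6% did in the full fit.

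**Figure D2:**
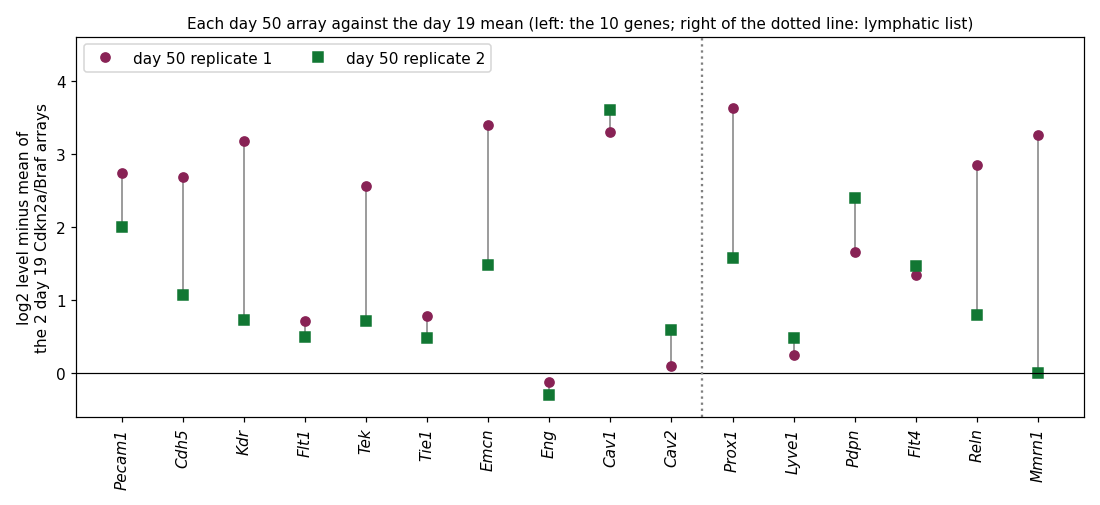
Log2 level on each day 50 array minus the mean of the 2 day 19 Cdkn2a/Braf arrays, for the 10 genes (left) and the 6 measured genes of the lymphatic list (right of the dotted line), with circles for replicate 1, squares for replicate 2 and a line joining them. Replicate 1 lies far above replicate 2 for Kdr, Tek, Emcn, Prox1, Reln and Mmrn1, while Cav1 lies above 3 on both.

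Other vessel genes moved with the 10 at day 50. Of 25 other endothelial genes 12 were higher and 0 lower, where 11.1% of all genes were higher and 14.5% lower. These included Calcrl, which encodes a receptor for adrenomedullin (2.35, SE 0.67), the surface glycoprotein gene Cd34 (2.09, SE 0.63), the sphingosine-1-phosphate receptor gene S1pr1 (1.80, SE 0.26) and the tight junction gene Cldn5 (1.69, SE 0.54). Esam, an adhesion molecule gene, did not pass (0.89, SE 0.33, limma adjusted p = 0.0692). The median of the 25 genes over the day 19 mean was 0.71 on day 50 replicate 1 and 0.34 on replicate 2. With median centring the count was 7, and with only the 4 arrays in the fit 1. Over all genes 21.6% and 1.45% passed in either direction under these 2 settings. Of 6 measured genes of lymphatic endothelium 4 were higher and 0 lower. Prox1, the transcription factor that sets lymphatic identity, read 7.09 and 6.87 at day 19 and 10.61 and 8.55 at day 50, a rise of 2.60 (SE 0.53, limma adjusted p = 0.00733). Flt4, which encodes VEGFR3, the receptor for VEGF-C, read 5.63 and 5.37 at day 19 and 6.83 and 6.96 at day 50, a rise of 1.40 (SE 0.15, limma adjusted p = 0.000247). Pdpn (podoplanin) and Reln (reelin) also rose, by 2.03 (SE 0.48) and 1.82 (SE 0.53). Lyve1, a hyaluronan receptor gene of lymphatic vessels, did not pass (0.36, SE 0.29, limma adjusted p = 0.341). In a fit of the 4 arrays alone, where 1.45% of all genes passed, none of the 4 lymphatic genes passed. Without day 50 replicate 1 the Reln difference was 0.79. The Prox1 levels of all sorted cells, at day 19 as well as at day 50, were above those of every tissue array, which read 5.46 to 6.49. Cdkn2a-only cells read 7.31 and 6.98.

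Markers of further cell types differed between day 19 and day 50 as well, where 11.1% of all genes were higher and 14.5% lower. Keratinocyte markers summed to 2364 to 2733 at day 19 and 11633 to 15332 at day 50, with 2 of 8 genes passing as higher and a median difference of 2.36. Fibroblast markers summed to 1297 to 1404 and 4498 to 5170, with 5 of 10 genes higher and 1 lower, and Schwann cell markers to 1408 to 2240 and 2580 to 10443, with 3 of 6 higher. Melanocyte markers went down, from 46543 to 49562 at day 19 to 24627 to 32717 at day 50, with 6 of 10 lower. Leukocyte markers summed to 523 to 1473 and 418 to 478, with 0 of 7 higher and 1 lower, and platelet markers to 298 to 343 and 386 to 431, with 0 of 5 changed. No marker is at 0, since array intensities have no empty reading. The part of these other cell types in the differences of the 10 genes was not tested.

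The comparison of Cdkn2a/Braf with Cdkn2a-only cells at day 19 asks what differs with Braf before arrest. None of the 10 genes passed in the limma fit, 1 had an unadjusted p under 0.05, and 0.291% of all genes passed in either direction. Cav2 had the largest difference, 1.68 (SE 0.39, limma adjusted p = 0.164), with both Cdkn2a/Braf arrays above both Cdkn2a-only arrays. Those 2 Cdkn2a-only arrays were themselves uneven (SD 0.95, n = 2). Without Cdkn2a-only replicate 2, which had the higher level, the difference was 2.35 and Cav2 passed (limma adjusted p = 0.0341). Kdr differed by -0.77 (SE 0.61, limma adjusted p = 0.966), and the remaining 8 genes by -0.24 to 0.31. The median of the 10 differences was 0.10, against 0.02 over all genes.

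The comparison of Cdkn2a/Braf/Lkb1 with Cdkn2a/Braf melanoma asks what differs with the Lkb1 genotype in melanoma. None of the 10 genes passed in the limma fit, 3 had an unadjusted p under 0.05, and 2.56% of all genes passed in either direction. The junction genes and the caveolins lay on opposite sides of 0. Cdh5 differed by 1.35 (SE 0.47, limma adjusted p = 0.157) and Pecam1 by 0.59 (SE 0.23, limma adjusted p = 0.188). Cav1 differed by -0.87 (SE 0.20, limma adjusted p = 0.0568) and Cav2 by -0.72 (SE 0.39, limma adjusted p = 0.347). The arrays of the 2 genotypes did not overlap for these 4 genes, nor for Eng and Tie1. Groups of 2 arrays can separate in this way without a difference, and the share of all genes that do was not counted. Eng differed by -0.44 and Flt1 by -0.34, while Kdr, Tek, Tie1 and Emcn lay between -0.06 and 0.08. Cav1 passed as lower under quantile normalization (-1.03, limma adjusted p = 0.0295) and with arrays scaled to a common interquartile range (-1.16, limma adjusted p = 0.0182). It also passed with a pseudocount of 16 (-0.86, limma adjusted p = 0.0478) and without Cdkn2a/Braf/Lkb1 replicate 1 (-1.09, limma adjusted p = 0.0437).

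Over all genes 1.83% were higher and 0.732% lower in Cdkn2a/Braf/Lkb1 than in Cdkn2a/Braf melanoma. Among the genes around the 10, Cavin2, a coat protein of caveolae, fell in Cdkn2a/Braf/Lkb1 melanoma. It read 9.08 and 9.98 in Cdkn2a/Braf melanoma and 7.97 and 7.15 in Cdkn2a/Braf/Lkb1 melanoma, a difference of -1.97 (SE 0.34, limma adjusted p = 0.0168). It was the only one of 8 measured caveola partners to pass, and it did not pass without Cdkn2a/Braf replicate 2 (-1.51) or without Cdkn2a/Braf/Lkb1 replicate 2. None of the 25 other endothelial genes passed in the limma fit, while 5 had an unadjusted p under 0.05, and the median difference was -0.0034. Nrp1, a co-receptor for VEGF, fell by 1.24 (SE 0.26, limma adjusted p = 0.0382), the only 1 of 12 co-receptor and signalling genes to pass. The ligand gene Pgf, which encodes PlGF, fell by 0.82 (SE 0.12, limma adjusted p = 0.0091) and Tgfb1 rose by 0.80 (SE 0.18, limma adjusted p = 0.0483). Without Cdkn2a/Braf replicate 2 neither ligand nor Nrp1 passed, and without any 1 of the 4 arrays Tgfb1 did not pass. Leukocyte markers summed to 2559 to 2884 in Cdkn2a/Braf and 5595 to 5627 in Cdkn2a/Braf/Lkb1 melanoma, with 1 of 7 higher. Mural cell markers summed to 1966 to 2271 and 2692 to 3449, with 2 of 12 higher, the contractile gene Acta2 (1.56, SE 0.25) and the pericyte gene Rgs5. Their part in these differences was not tested.

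**Figure D3:**
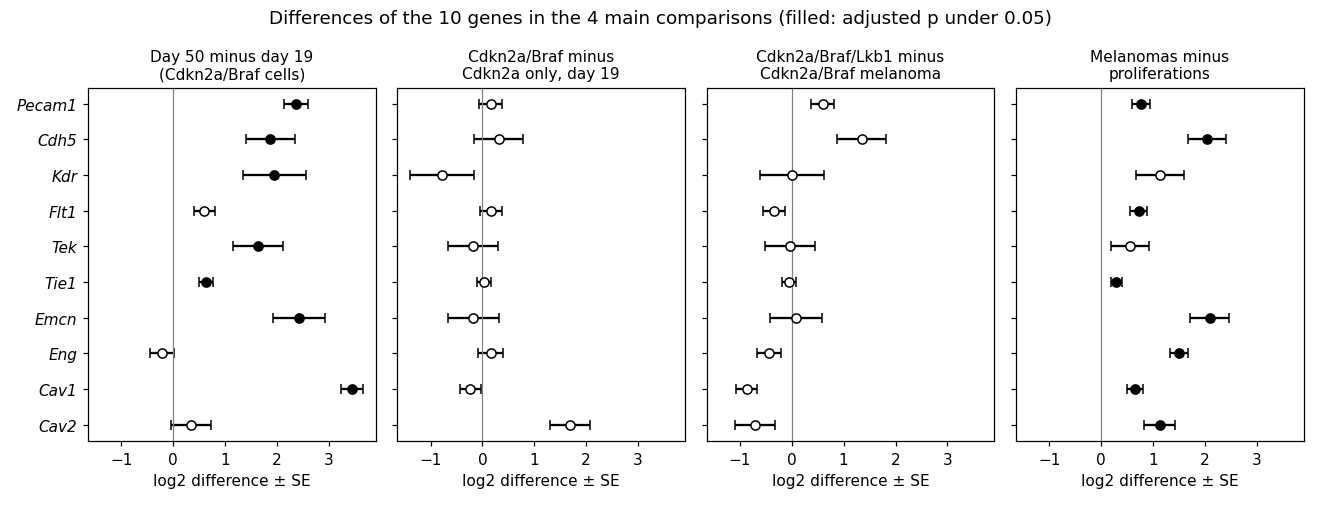
Log2 difference of each of the 10 genes in the 4 main comparisons, with bars of 1 SE and filled points where the limma adjusted p is under 0.05. Filled points are 7 for day 50 against day 19, 0 for the Braf comparison, 0 for the Lkb1 comparison and 8 for the melanomas against the proliferations.

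The comparison of both melanoma genotypes with the Lkb1/Braf proliferations asks how melanoma tissue differs from melanocytic proliferations. Emcn was higher in the melanomas by 2.09 (SE 0.38, limma adjusted p = 0.00219), Cdh5 by 2.04 (SE 0.36, limma adjusted p = 0.00184) and Eng by 1.50 (SE 0.18, limma adjusted p = 0.000209). Cav2 was higher by 1.13 (SE 0.30), Pecam1 by 0.77 (SE 0.17), Flt1 by 0.72 (SE 0.16), Cav1 by 0.66 (SE 0.16) and Tie1 by 0.29 (SE 0.10), with limma adjusted p of 0.0135, 0.00674, 0.00559, 0.00874 and 0.0486. In all, 8 of the 10 genes were higher and 0 lower, where 20.3% of all genes tested were higher and 18.7% lower, and the median difference was 0.95 against -0.03 over all genes. Kdr (1.13, SE 0.47, limma adjusted p = 0.0789) and Tek (0.55, SE 0.37, limma adjusted p = 0.252) did not pass. For all 10 genes but Cav1 all 4 melanoma arrays lay above all 3 proliferation arrays, and for Cav1 1 melanoma array lay within the range of the proliferations. The share of all genes with such a separation was not counted, and 39% of all genes passed in either direction. The separation is therefore not read as particular to these genes. The Cav1 difference depends on scaling, at 0.19 under quantile normalization and -0.12 with a common interquartile range, neither of which passed. Under those scalings 5 genes passed as higher, namely Cdh5, Flt1, Tie1, Emcn and Eng. Tie1 passed in 6 of 16 alternatives and lost its call in the other 10, those without any 1 of the 7 arrays among them (limma adjusted p up to 0.155). Since the proliferations lack the Cdkn2a genotype that both melanomas carry and were pooled, genotype and lesion type cannot be told apart.

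Each melanoma genotype was also set against the proliferations, which both comparisons share. For Cdkn2a/Braf/Lkb1 melanoma 5 of the 10 genes were higher, where 20% of all genes were, and they were Cdh5 (2.72), Emcn (2.13), Eng (1.28), Pecam1 (1.06) and Flt1 (0.55). The median of the 10 differences was 0.92, and 0.68 without Cdkn2a/Braf/Lkb1 replicate 1. Flt1 passed in 8 of 14 alternatives. For Cdkn2a/Braf melanoma 6 were higher, where 12.6% of all genes were, and they were Emcn (2.05), Eng (1.72), Cav2 (1.49), Cdh5 (1.37), Cav1 (1.09) and Flt1 (0.89). The median of these 10 differences was 1.11, and 1.08 without Cdkn2a/Braf melanoma replicate 2. Cdh5 passed in 5 of 14 alternatives. The differences of Cav1 and Cav2 for Cdkn2a/Braf/Lkb1 melanoma were 0.22 (SE 0.19, limma adjusted p = 0.361) and 0.77 (limma adjusted p = 0.103). With a common interquartile range Cav1 was lower in that melanoma than in the proliferations (-0.70, limma adjusted p = 0.0088).

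The tissue differed in its make-up as well, where 20.3% of all genes were higher in the melanomas and 18.7% lower. Keratinocyte markers summed to 21215 to 22432 in the proliferations, 533 to 6528 in Cdkn2a/Braf melanoma and 516 to 1102 in Cdkn2a/Braf/Lkb1 melanoma, with 8 of 8 genes lower in the melanomas and a median of -4.07. Adipocyte markers summed to 5064 to 6374, 750 to 1097 and 1111 to 2001 in the same order, with 7 of 7 lower. Melanocyte markers summed to 3502 to 3917, 685 to 1112 and 598 to 654, with 8 of 10 lower. Skeletal muscle markers were uneven within groups, at 1900, 19111 and 17784 in the proliferations, 2860 and 590 in Cdkn2a/Braf melanoma and 964 and 6263 in Cdkn2a/Braf/Lkb1 melanoma, with 2 of 6 lower and a median of -2.17. Mural cell markers were split, with 3 of 12 higher and 3 lower, and summed to 1893 to 2231, 1966 to 2271 and 2692 to 3449. The higher ones were Rgs5 (1.96), Pdgfrb, a PDGF receptor gene (1.61), and Abcc9. The lower ones were the smooth muscle myosin gene Myh11 (-0.98), Cnn1 and Notch3. The part of these cell types in the differences of the 10 genes was not tested.

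Of the 25 other endothelial genes 10 were higher in the melanomas and 2 lower, with a median of 0.45. Over all genes 20.3% were higher and 18.7% lower. Under quantile normalization 6 of the 25 were higher and 2 lower. The largest differences were in Clec14a, a lectin gene of vessel walls (1.63, SE 0.27), Calcrl (1.58, SE 0.51), S1pr1 (1.29, SE 0.20) and Ramp2, the partner of Calcrl (1.19, SE 0.29). Cldn5 (-0.07, SE 0.41) and Esam (0.67, SE 0.25, limma adjusted p = 0.0598) did not pass. Of 7 genes of tip cells, the cells that lead new sprouts, 4 were higher, with Esm1 at 2.38, Angpt2 at 1.73, Cxcr4 at 0.85 and Nid2 at 0.62. Angpt2 is also counted among the ligands below. The tip cell count was 2 under quantile normalization. The list of 6 lymphatic genes had 0 called in either direction in the limma fit and 0 with an unadjusted p under 0.05, with differences from -0.25 to 0.21, and 1 called under quantile normalization or a common interquartile range. Of 11 arterial, venous and capillary genes 4 were higher, led by the apelin receptor gene Aplnr (1.96).

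Ligands of the receptors among the 10 genes were read on the same arrays. Vegfa, the main ligand of the Kdr product, read 8.17, 8.10 and 7.67 in the proliferations and 7.51, 8.38, 7.71 and 7.82 in the melanomas, which overlapped (-0.13, SE 0.22, limma adjusted p = 0.663). Angpt1, which activates TIE2, read 5.12, 5.28 and 5.17 in the proliferations and 7.30, 7.69, 7.60 and 6.09 in the melanomas, higher by 1.98 (SE 0.31, limma adjusted p = 0.000972). Angpt2, which modulates it, read 5.70, 5.77 and 5.92 against 7.34, 8.0, 7.58 and 7.20, higher by 1.73 (SE 0.34, limma adjusted p = 0.00311). Both angiopoietin genes thus passed while Vegfa did not. Tgfb3, a TGF-beta ligand, rose by 1.56, Vegfc, the ligand of VEGFR3, by 1.17 and Pgf by 0.44. In all, 5 of 12 measured ligands were higher and 0 lower, where 20.3% of all genes were higher and 18.7% lower. Vegfb (-0.17), Vegfd (0.87), Angpt4 (-0.09), Tgfb1 (0.17), Gdf2 (-0.12) and Bmp10 (-0.09) did not pass. The VEGF co-receptor genes Nrp1 and Nrp2 were higher by 1.89 (SE 0.20) and 1.95 (SE 0.18), among 7 of 12 co-receptor and signalling genes that were higher. Ptprj, a phosphatase gene, and Tgfbr1, a TGF-beta receptor gene, were higher by 1.85 and 1.18.

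At day 50 the ligands behaved otherwise. Vegfc read 8.36 and 8.92 at day 19 and 6.16 and 7.34 at day 50 and fell by 1.89 (SE 0.37, limma adjusted p = 0.00637). Pgf rose by 0.55 (SE 0.12, limma adjusted p = 0.0118) and Gdf2, the BMP9 gene, by 0.51 (SE 0.12, limma adjusted p = 0.0126). In all, 2 of 12 ligands rose and 1 fell, where 11.1% of all genes were higher and 14.5% lower. Vegfa differed by 0.35, Angpt1 by 0.49 and Angpt2 by 0.76, and none of them passed. The other 6 measured ligands did not pass either, namely Vegfd (1.35), Bmp10 (0.20), Angpt4 (0.17), Tgfb3 (-0.02), Vegfb (-0.21) and Tgfb1 (-0.35). Nrp1 fell by 1.86 (SE 0.26, limma adjusted p = 0.00106) and Nrp2 rose by 0.97 (SE 0.23, limma adjusted p = 0.0161). Of the 12 co-receptor and signalling genes 2 were higher and 4 lower, with a median of -0.37. With a common interquartile range the median was 0.30, and 2 were higher and 2 lower. Flt4, which was higher at day 50, is in this list and in the lymphatic list. Under quantile normalization or a common interquartile range neither Pgf nor Gdf2 passed, nor did they without either day 19 array. In the Braf comparison 0 of the 149 measured genes of the 16 other lists passed in the limma fit, where 0.291% of all genes did. Of the 149, 13 had an unadjusted p under 0.05.

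The cavins and other partners of caveolae followed Cav1 only in part. Cavin1, which is needed to form caveolae, read 6.61 and 6.66 at day 19 and 7.69 and 7.34 at day 50, a rise of 0.88 (SE 0.16, limma adjusted p = 0.00454). Cavin3 read 6.78 and 6.74, then 7.43 and 7.46, a rise of 0.69 (SE 0.12, limma adjusted p = 0.0037). Ehd2, an ATPase at the neck of caveolae, rose by 0.99 (SE 0.30, limma adjusted p = 0.0386). These 3 of 8 partners rose, and 0 fell, where 11.1% of all genes were higher and 14.5% lower. Ehd2 passed in 5 of 13 alternatives and under none of the 3 other scalings. Without day 50 replicate 1 its difference was 0.56. In a fit of the 4 arrays alone, where 1.45% of all genes passed, none of the 3 passed. Cavin2 (-0.65), Cavin4 (0.67), Cav3 (0.37), Pacsin2 (-0.18) and Pacsin3 (0.16) did not pass. In the melanomas against the proliferations Cavin4, the cavin of muscle, was higher by 1.62 (SE 0.38), Cavin2 by 1.22 (SE 0.26), Cavin3 by 0.60 (SE 0.09) and Pacsin2, a membrane-bending protein gene, by 0.32 (SE 0.11). The Cavin2 rise was in Cdkn2a/Braf melanoma (2.20, SE 0.31, limma adjusted p = 0.00112). Cavin2 in Cdkn2a/Braf/Lkb1 melanoma, at 7.97 and 7.15, overlapped the proliferations at 7.30, 7.23 and 7.45 (0.24, SE 0.31, limma adjusted p = 0.561). The Pacsin2 difference was -0.14 under quantile normalization, and Cavin2 and Cavin4 were the partners that passed as higher under that scaling and with a common interquartile range. Cav3, the muscle caveolin, was lower (-0.37, SE 0.12). The part of skeletal muscle, whose markers differed between these arrays, in Cavin4 and Cav3 was not tested. Cavin1 (0.05), Ehd2 (0.45) and Pacsin3 did not pass. At day 19 Cavin2 read 7.02 and 7.52 in Cdkn2a-only and 8.61 and 9.06 in Cdkn2a/Braf cells, groups that did not overlap, but the difference did not pass (1.56, SE 0.34, limma adjusted p = 0.132).

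**Figure D4:**
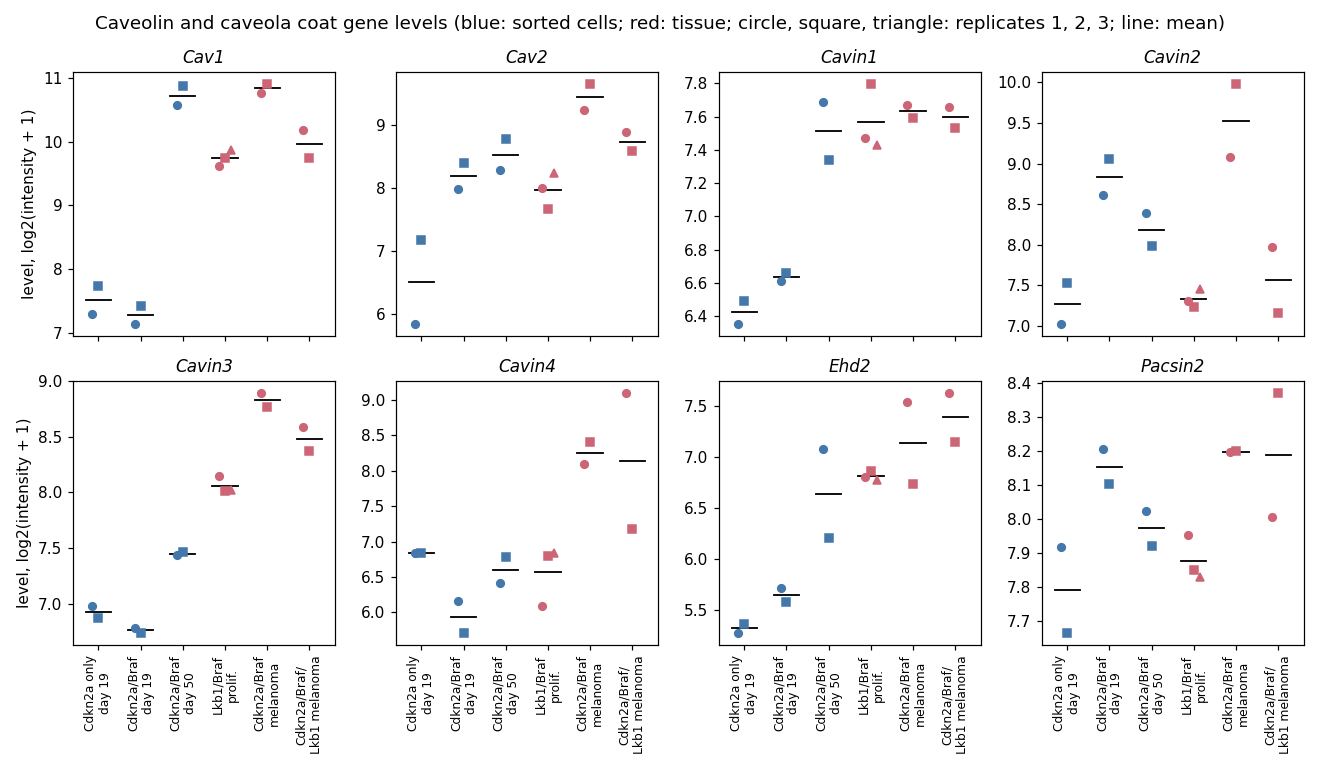
Level of the 2 caveolins and of 6 caveola partners on the 13 arrays, as log2(intensity + 1), with 1 panel and 1 vertical axis per gene, points for arrays and a line for each group's mean. Cav1 and Cavin1 are lowest in the 4 day 19 arrays, while Cavin2 is highest in Cdkn2a/Braf melanoma (9.08 and 9.98) and spans 7.02 to 9.06 at day 19.

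Sorted cells and tissue were also compared, where sorting cannot be told apart from time and lesion and, for the proliferations, from genotype. In Cdkn2a/Braf melanoma against day 19 Cdkn2a/Braf cells 7 of the 10 genes were higher, where 7.17% of all genes were, with Cav1 at 3.56, Emcn at 3.32, Cdh5 at 1.98, Flt1 at 1.85, Tek at 1.80, Pecam1 at 1.78 and Eng at 1.52. Kdr, Tie1 and Cav2 did not pass. With any 1 of the 4 arrays left out the median of the 10 differences was 1.78 to 1.92. Cdh5 passed in 7 and Tek in 6 of 13 alternatives. Against day 50 cells 2 genes were higher in Cdkn2a/Braf melanoma, where 15.5% of all genes were higher and 16.9% lower, and they were Eng (1.73, SE 0.23, limma adjusted p = 0.000804) and Flt1 (1.25, SE 0.21, limma adjusted p = 0.00239). The differences depended on the day 50 arrays. Their median over the 10 genes was 0.14, and it was 1.00 without day 50 replicate 1 and -0.24 without replicate 2. In the proliferations against day 50 cells 3 genes were lower, where 9.2% of all genes were, namely Pecam1 (-1.06, SE 0.21), Cav1 (-0.98, SE 0.19) and Tie1 (-0.58, SE 0.12). The median of the 10 differences was -0.78, and it was -0.32 without day 50 replicate 1 and -1.08 without replicate 2. These comparisons share the day 50 or the day 19 arrays with the comparison of day 50 with day 19.

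Over the 13 arrays the 10 genes varied together to different degrees, given here as Pearson correlations that describe arrays sharing 6 groups. Emcn had the highest correlation with Tek (0.922), Pecam1 (0.902) and Cdh5 (0.902). Cav1 was closest to Pecam1 (0.911), ahead of its own partner Cav2 (0.705). Eng was least like the others, with 0.347 to Tie1 and 0.442 to Pecam1, and its highest value was 0.766, to Flt1. Among 12592 genes outside the 10 with a mean level of at least 6, those most like the mean of the 8 endothelial genes were Hoxd8 (0.972), Thbd (0.970), Ptprb (0.969), Fibin (0.967) and Adgrf5 (0.966). Thbd encodes thrombomodulin and Ptprb the vascular phosphatase VE-PTP, and Ptprb is also one of the 25 other endothelial genes. Those most like the mean of Cav1 and Cav2 were Cyyr1 (0.948), Trip6 (0.947), Gpc3 (0.940), Serpinb1a (0.938) and Myadm (0.938).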

How the data were processed

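Per the labels' protocols, RNA of the 13 samples was purified on Qiagen RNeasy kit, and NuGEN's Ovation V2 and Encore kits served for amplification and labelling. The authors deposited linear intensities (3.35 to 17698), made with RMA per the submitters' processing notes; its version and the step to a linear scale are not given in the sources used here. They were analysed as log2(intensity + 1), which with background in low intensities understates differences of dim genes. Of 34760 probe sets, 21640 name 1 gene, 1321 name several and were left out, and 11799 are not listed in the platform table. These gave 19937 genes, each read by its probe set with the highest mean. The file has 0 columns without a sample, and 0 pairs of arrays held identical values. No genome build is named in the sources used here, so gene coordinates are left out, and the promoter windows carry the build of their own table.

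The main model, in limma 3.58.1 under R 4.3.3, had 6 group means over all 13 arrays (7 residual and 3.08 prior degrees of freedom), with two-sided tests whose p-values were adjusted by Benjamini-Hochberg across the 19937 genes, at 0.05. There were 4 main and 5 secondary comparisons. The fit was tested on simulated data. Named were the 10 genes and every measured caveola partner and ligand. From each other list the first 2 genes and up to 4 of the largest called differences were named. Tyr stands for the melanocyte list. Notch3 and Cnn1 were added so that every called mural gene of the melanomas against the proliferations is named. Genes most like the 10 were sought among those with a mean level of at least 6. Beside the 10, 16 lists of genes were used. The 10 genes and the lists were chosen with earlier results of these data known. Alternatives were 3 scalings, the mean of probe sets, a filter on dim genes (log2 above 6 in 2 arrays), a pseudocount of 16, trend and robust moderation, a fit to the compared groups alone, a replicate block, and each array left out. Tables and plots were made in Python 3.11.15 (pandas 2.3.3, matplotlib 3.10.9; numpy 2.4.6).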

Additional observations from a re-analysis of the deposited data

How the results depend on the processing

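Of 38 called differences of the 10 genes, 16 kept their direction and passed under each alternative tried. Over those 38 and their alternatives, 451 of 532 values passed in the same direction, 80 kept the direction without passing and 1 reversed, Cav1 in the melanomas against the proliferations (-0.12 with a common interquartile range). Cav1 at day 50 passed in all 13 alternatives (3.30 to 4.37). Among other list genes 6 of 1075 values reversed. With a common interquartile range these were Bmpr2 and Smad5 at day 50 (0.069 and 0.18) and in the melanomas against the proliferations (-0.10 and -0.14), and under quantile normalization Pacsin2 and Smad5 in the latter (-0.14 and -0.18). Called genes of the 10 numbered 7 at day 50, 1 with only the groups compared, and 3 to 7 with an array left out. They numbered 0 in the Braf comparison (0 to 1 with an array left out), and 0 in the Lkb1 comparison, with 1 under quantile normalization, a common interquartile range or a pseudocount of 16 (0 to 1 with an array left out). For the melanomas against the proliferations the count was 8, and 5 under quantile normalization or a common interquartile range. With an array left out it was 3 to 5 for Cdkn2a/Braf/Lkb1 and 3 to 5 for Cdkn2a/Braf melanoma against the proliferations, where the full fits gave 5 and 6. For Cdkn2a/Braf/Lkb1 melanoma a common interquartile range gave 5 higher and 1 lower (Cav1). For Cdkn2a/Braf melanoma against day 19 the count was 7, and 5 with any array left out. For Cdkn2a/Braf melanoma against day 50 it was 2, 4 with a common interquartile range, 1 with only the groups compared and 2 to 5 with an array left out. For the proliferations against day 50 it was 3, 1 with only the groups compared and 2 to 7 with an array left out. The fit on only the compared groups has fewer arrays to estimate the spread from, and it moved counts both ways. It gave 10 for the melanomas against the proliferations and 9 for Cdkn2a/Braf melanoma against day 19. Against the proliferations it gave 7 for Cdkn2a/Braf/Lkb1 and 9 for Cdkn2a/Braf melanoma. Calls over all genes moved as well. Against the proliferations 45.4% passed for both melanomas (full fit 39%), 47.1% for Cdkn2a/Braf/Lkb1 (40.6%) and 30.3% for Cdkn2a/Braf (21.5%). For Cdkn2a/Braf melanoma 14% passed against day 19 (12.6%) and 2.54% against day 50 (32.4%). Between day 50 and day 19 1.45% passed (25.6%), and 9.59% between the proliferations and day 50 (18.3%). Where an array is left out of a group of 2, that group is read from 1 array. The cause of these and the other shifts was not tested.

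Over all genes, 2211 of 5095 calls at day 50 were higher, 1034 of 4297 with median centring, and 290 genes passed with only the groups compared. For the melanomas against the proliferations 4042 of 7766 were higher, 4850 of 7412 with median centring and 5528 of 8262 with a common interquartile range. In the Lkb1 comparison 364 of 510 were higher, 189 of 319 with a common interquartile range, and 8 genes passed with only the groups compared. The replicate numbers did not pair samples (correlations of deviations from -0.117 to 0.0599). With the number as a block the counts were 6, 0, 0 and 7 in the 4 main comparisons, and 4, 5, 2, 6 and 2 in the secondary ones. The number of arrays and signal over background limit precision, and no group had the 4 or more arrays a test for outlying arrays needs.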
